A study of Mus musculus with 2 samples.

Results

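The expression of the 4 Tead genes, their coactivator genes Yap1 and Wwtr1 and the YAP and TAZ target genes Ctgf, Cyr61, Amotl2 and Ankrd1 was compared between control PGCs and Klf9-OE PGCs. The 10 genes were taken by their symbol, each had a single locus in either file, and they were among 18742 genes with an RPKM above 0 in at least 1 library. PGCs are the embryonic precursors of eggs and sperm. They were sorted by GFP from the genital ridges of male and female E13.5 embryos of MCH females mated with Oct4-deltaPE-GFP males, infected at MOI 5 with a control lentivirus or a lentivirus carrying the coding region of Klf9 in a CSII-EF vector, and cultured for 1 day on gelatin. The labels describe a GS medium with bFGF for both libraries, while the paper describes a culture without bFGF. Each condition had 1 library, and how many embryos went into a library is not given in the sources used here. All values are therefore a comparison of 2 libraries without a replicate check. The error given is the 95% interval of Cufflinks, which covers estimation within a library and not the difference between cultures. Intervals that did not overlap between the libraries are called apart, and a log2 fold change is the difference of log2(RPKM + 0.1), Klf9-OE minus control.

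TEAD proteins bind DNA through their TEA domain and need a coactivator to switch genes on. YAP and TAZ, which are encoded by Yap1 and Wwtr1, serve as such coactivators, and the Hippo kinases keep them out of the nucleus by phosphorylation. Ctgf, Cyr61, Amotl2 and Ankrd1 are widely used readouts of this coactivation, although serum, stretch and the SRF pathway also act on several of them. Tead4 is known for its role in the trophectoderm, the outer layer of the blastocyst. It was among the candidate genes that the study over-expressed in PGCs. For the candidates other than Bcl3 and Klf9, Tead4 among them, the paper reports no significant enhancement of embryonic germ cell formation.

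The promoters were searched for the short sequence that TEAD proteins are known to bind. RefSeq promoter windows of 300 bases (250 before and 50 from the start site, GRCm38.p6) were found for 7 of the 10 genes, and Ctgf, Tead1 and Tead4 had none. The windows of the 3 targets whose intervals did not overlap between the libraries are shown 5′ to 3′ on the strand of the gene, with each match to CATTCC, or GGAATG on the other strand, in capitals. They lie at chr19:36119795-36120094 on the reverse strand (Ankrd1), chr3:145649936-145650235 on the reverse strand (Cyr61, named Ccn1 in RefSeq) and chr9:102717554-102717853 on the forward strand (Amotl2).
Ankrd1: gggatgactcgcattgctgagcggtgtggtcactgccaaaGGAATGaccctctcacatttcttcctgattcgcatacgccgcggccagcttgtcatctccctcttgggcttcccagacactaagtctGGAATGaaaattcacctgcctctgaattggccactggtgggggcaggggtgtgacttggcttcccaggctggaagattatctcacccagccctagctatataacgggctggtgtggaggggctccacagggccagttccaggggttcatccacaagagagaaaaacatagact
Cyr61: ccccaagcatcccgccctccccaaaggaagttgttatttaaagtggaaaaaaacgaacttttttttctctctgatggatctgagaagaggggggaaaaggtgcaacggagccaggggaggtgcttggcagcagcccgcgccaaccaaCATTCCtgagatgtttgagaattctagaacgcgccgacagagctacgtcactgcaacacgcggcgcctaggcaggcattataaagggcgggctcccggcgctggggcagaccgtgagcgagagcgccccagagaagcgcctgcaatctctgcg
Amotl2: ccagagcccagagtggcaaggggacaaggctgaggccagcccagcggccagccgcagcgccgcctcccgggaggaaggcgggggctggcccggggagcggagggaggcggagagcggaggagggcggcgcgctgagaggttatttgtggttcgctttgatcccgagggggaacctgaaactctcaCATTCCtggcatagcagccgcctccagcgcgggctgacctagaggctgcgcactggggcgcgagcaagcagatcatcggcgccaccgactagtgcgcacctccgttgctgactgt

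The Ankrd1 window held 2 matches, which began 210 and 123 bases upstream of the start site. The match in the Cyr61 window began 103 bases upstream, and that in the Amotl2 window 65 bases upstream. Tead3, Yap1 and Wwtr1 also had a match in at least 1 window, and Tead2 had none, so 6 of the 7 genes held the motif. Among all 27025 genes with a window, 16.6% held it in at least 1 window, and it was present in 14.7% of all 32851 windows. A match is a stretch of letters and not a site at which binding was measured.

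**Figure D1:**
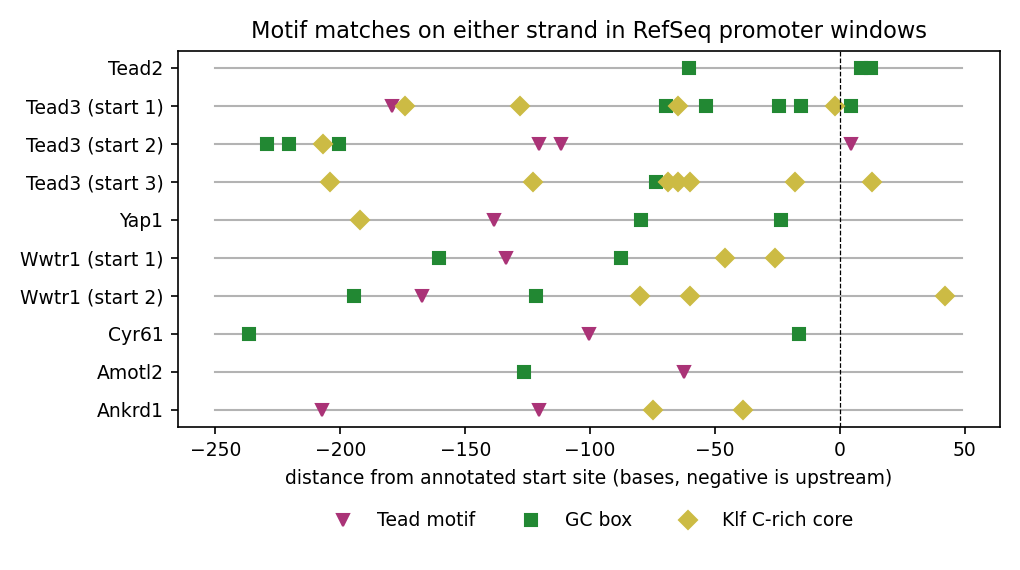
Motif matches in the RefSeq promoter windows of 7 genes, with the distance from the annotated start site in bases on the x axis and 1 line for each start site. Triangles are Tead motifs, squares GC boxes and diamonds the Klf C-rich core, and Tead2 is the gene without a triangle.

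The label check is Klf9 itself, which reached an RPKM of 2.27 (1.97 to 2.57) in the control against 80.8 (77.0 to 84.5) in Klf9-OE PGCs. The depth of the Klf9-OE library was 1.22 times that of the control library, as implied by the widths of the intervals of 2851 genes. This depth ratio is a median over genes with a single start site, a reference row in both files and at least 50 implied reads in control PGCs. Assembled loci, such as those of Tead1, Tead2 and Tead3, were left out of it. The intervals of Klf9 implied 230 and 1825 reads in control and Klf9-OE PGCs. Its reads per RPKM in Klf9-OE over control PGCs came to 0.223. Its loci were assembled and spanned 27062 and 25686 bases, and the part of this in its difference was not tested. The markers of germ cells were abundant, with a summed RPKM of 2435 over 12 genes in control PGCs and 2132 in Klf9-OE PGCs. The intervals were apart and lower in Klf9-OE PGCs for 9 of these 12 markers and higher for 1. Those of Sycp3, the most abundant, overlapped (541.4 and 556.7). Intervals narrow with the number of reads, and no share of intervals apart was worked out for genes as abundant as most of these markers. The 13 measured markers of gonad somatic cells had a summed RPKM of 51.3 in control PGCs, ranging from 0.1065 to 14.6, and 64.6 in Klf9-OE PGCs, ranging from 0 to 14.6. Of these, 7 were higher, 1 was lower (Sox9) and 5 overlapped by their intervals, beside 11.2% higher and 14.4% lower over all genes. Acta2, the most abundant, had an RPKM of 14.6 in each library, and Tcf21 was listed at 0 in Klf9-OE PGCs. The part of these other cells in the results below was not tested. In such bulk libraries, more cells of a type and more RNA per cell cannot be told apart.

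None of the 10 genes was changed 2-fold by RPKM, 6 had intervals that did not overlap between the libraries, and the median log2 fold change was 0.19. A 2-fold ratio in either direction was seen for 19.3% of the 18742 genes, and for 7.72% of the 12565 whose RPKM reached 1 in either library. Intervals apart were seen for 25.6% of 18631 genes with a single locus, 11.2% higher and 14.4% lower in Klf9-OE PGCs. Because intervals narrow with the number of reads, genes of a similar level are a closer background. Among the 6378 genes with a mean RPKM of 5 to 40, they were apart for 35.8%, with 15.0% higher and 20.8% lower. Of the 10 genes, Tead1, Tead3, Cyr61 and Ankrd1 were higher and Tead2 and Amotl2 were lower. When the libraries were rescaled to the same upper quartile or the same sum, 5 were higher and 1 was lower, since Yap1 joined the former and Tead2 left the latter. The median over all 18742 genes was -0.015 (log2 fold change).

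**Figure D2:**
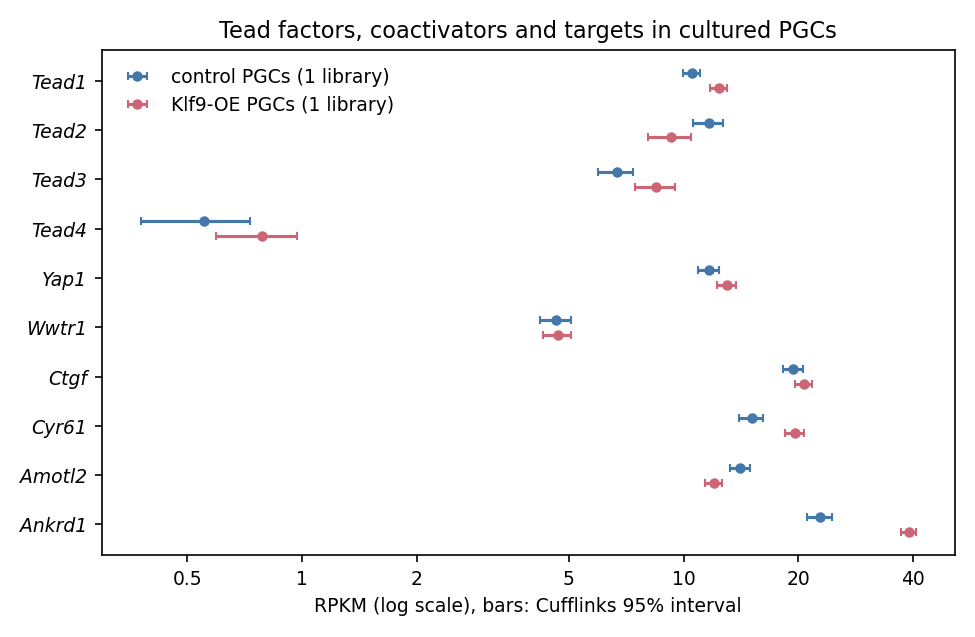
RPKM of the 10 genes on a log axis in control PGCs (blue) and Klf9-OE PGCs (red), 1 library each, with bars for the Cufflinks 95% interval. Ankrd1 has the widest gap between the libraries, from 22.7 to 38.9, and Tead4 is the only gene below an RPKM of 1.

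Among the Tead genes, Tead1 (chromosome 7 of mm10, 112679320 to 112906805) reached an RPKM of 10.5 (9.96 to 11.1) in the control against 12.4 (11.8 to 13.0) in Klf9-OE PGCs. It was 1.18-fold higher, with intervals apart. Tead2 (chromosome 7, 45215753 to 45233619), which is known for its expression in the early embryo, reached an RPKM of 11.6 (10.6 to 12.7) in the control against 9.25 (8.04 to 10.5) in Klf9-OE PGCs. Its level was 0.795 times that of control, and the intervals were barely apart, with a lower bound of 10.56 in control PGCs and an upper bound of 10.46 in Klf9-OE PGCs. Tead3 (chromosome 17, 28331673 to 28350805) reached an RPKM of 6.68 (5.97 to 7.39) in the control against 8.46 (7.45 to 9.48) in Klf9-OE PGCs, which is 1.27-fold higher with intervals apart by a similarly narrow margin. The intervals implied fewer reads in the deeper library for both genes, with 476 and 235.0 for Tead2 and 354 and 277 for Tead3 in control and Klf9-OE PGCs. Their reads per RPKM in Klf9-OE over control PGCs came to 0.621 and 0.618 against the depth ratio of 1.22, which rests on no assembled loci. The part of this in their differences was not tested. Of the 10 genes, Tead4, Wwtr1, Ctgf and Cyr61 were within 10% of the depth ratio, and Tead1 (0.961), Yap1 (1.06), Amotl2 (1.70) and Ankrd1 (1.63) were not. The intervals of Tead2 and of Tead3 overlapped once those of the Klf9-OE library were widened by the square root of 2.

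Tead4 (chromosome 6, 128227143 to 128300813), a candidate gene of the study, was much less abundant than the other Tead genes. Its RPKM was 0.553 (0.377 to 0.730) in the control against 0.784 (0.595 to 0.972) in Klf9-OE PGCs, with intervals that overlapped. The intervals imply 39.5 and 68.9 reads, and the log2 fold change of 0.44 had a range of -0.14 to 1.01 when the errors of both intervals were combined. A difference of this size was not detectable at this depth. Tead4 made up 1.88% of the summed RPKM of the Tead genes in control PGCs and 2.54% in Klf9-OE PGCs.

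The order of the Tead genes differed between the libraries at its top. In control PGCs it was Tead2, Tead1, Tead3 and Tead4, with overlapping intervals for Tead2 and Tead1. In Klf9-OE PGCs it was Tead1, Tead2, Tead3 and Tead4, with Tead1 and Tead2 apart and overlapping intervals for Tead2 and Tead3. Tead2 accounted for 39.6% of the summed RPKM of the 4 genes in control PGCs and 30.0% in Klf9-OE PGCs, Tead1 for 35.8% and 40.1%, and Tead3 for 22.7% and 27.4%. The sum itself was 29.4 in the control against 30.9 in Klf9-OE PGCs, a ratio of 1.05. At most 0.293% of the 51-base words of the transcripts of a Tead gene occurred in those of other genes in the GENCODE annotation, so few reads could be shared between the paralogs.

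Both coactivators were expressed, Yap1 above Wwtr1. Yap1 (chromosome 9, 7932001 to 8004596) reached an RPKM of 11.7 (10.9 to 12.4) in the control against 13.0 (12.3 to 13.7) in Klf9-OE PGCs, and Wwtr1 (chromosome 3, 57455644 to 57575910) had 4.63 (4.19 to 5.06) and 4.67 (4.27 to 5.08), respectively. The intervals of both genes overlapped between the libraries. The log2 fold change was 0.15 for Yap1, with a range of 0.03 to 0.28 from the combined errors. For Wwtr1 it was 0.01, with a range of -0.17 to 0.20. YAP and TAZ are regulated mainly through their phosphorylation and location, which RPKM does not measure.

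The target genes were the most abundant of the 10 in control PGCs. Ankrd1 (chromosome 19, 36111965 to 36119844 in the Klf9-OE file) encodes an ankyrin repeat protein of muscle and of stressed cells. It reached an RPKM of 22.7 (21.1 to 24.4) in the control against 38.9 (37.2 to 40.7) in Klf9-OE PGCs. This 1.71-fold difference, a log2 fold change of 0.77 with a range of 0.65 to 0.90, was the largest of the 10 genes. Of the 12565 genes whose RPKM reached 1 in either library, 5.03% had a log2 fold change at least as high.

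The locus of Ankrd1 was not the same in the files. In control PGCs Cufflinks assembled it from 36093335 to 36119892, a span of 26558 bases against 7880 bases in Klf9-OE PGCs, and this span overlapped the locus of the neighbouring gene Rpp30 (36083716 to 36104773). Rpp30 lies on the other strand, and its RPKM was 32.2 in the control against 35.1 in Klf9-OE PGCs. The intervals of Ankrd1 implied 732 reads in control PGCs and 2042 in Klf9-OE PGCs. Its reads per RPKM in Klf9-OE over control PGCs came to 1.63 against the depth ratio of 1.22. RPKM divides by transcript length, and how far the longer model moved the control value of Ankrd1, in either direction, was not tested. Without Ankrd1, 5 of 9 genes had intervals apart and the median log2 fold change was 0.15.

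Cyr61 and Ctgf encode secreted matrix proteins of the same CCN family, and their loci were identical in the files. Cyr61 (chromosome 3, 145646971 to 145649985) reached an RPKM of 15.1 (14.0 to 16.2) in the control against 19.5 (18.4 to 20.7) in Klf9-OE PGCs. It was 1.30-fold higher, a log2 fold change of 0.37 with intervals apart. Ctgf (chromosome 10, 24595442 to 24598682) reached an RPKM of 19.4 (18.2 to 20.5) in the control against 20.6 (19.6 to 21.7) in Klf9-OE PGCs, with overlapping intervals and a log2 fold change of 0.09 in a range of -0.02 to 0.20. In control PGCs the intervals of Ctgf and Cyr61 were apart with Ctgf higher, and in Klf9-OE PGCs they overlapped. An antisense gene of GENCODE, Gm15270, shares 17.1% of the 51-base words of Ctgf, and reads of a library that does not mark the strand cannot be assigned to either.

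Amotl2, which encodes an angiomotin that binds YAP and holds it back, was lower by RPKM. It lies on chromosome 9 from 102717804 to 102733417 and reached an RPKM of 14.1 (13.2 to 14.9) in the control against 12.0 (11.4 to 12.6) in Klf9-OE PGCs. Its level was 0.850 times that of control, a log2 fold change of -0.23 with intervals apart. The intervals implied 1103 reads in control PGCs and 1597 in Klf9-OE PGCs. Its reads per RPKM in Klf9-OE over control PGCs came to 1.70 against the depth ratio of 1.22. The part of this in its difference, including the direction, was not tested. Its row came from an assembled locus in the control file and from the reference annotation in the Klf9-OE file, with the same bounds. By RPKM, the 4 targets did not move together, since 2 were higher, 1 was lower and 1 had overlapping intervals. Their summed RPKM was 71.3 in the control against 91.1 in Klf9-OE PGCs, and Ankrd1 supplied most of that difference.

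**Figure D3:**
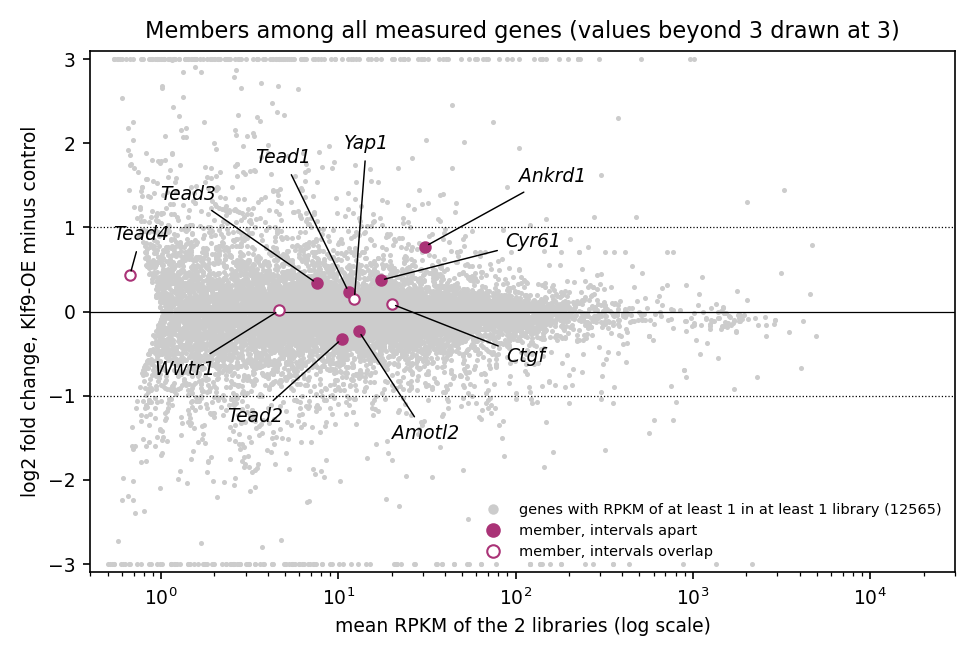
Log2 fold change (Klf9-OE minus control) against the mean RPKM of the libraries on a log axis, with 12565 genes in grey and the 10 genes as larger circles, filled where the intervals were apart. Grey values beyond 3 are drawn at 3, and all 10 genes lie between the dotted lines at a 2-fold difference, from -0.33 for Tead2 to 0.77 for Ankrd1.

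Genes that act upstream of YAP and TAZ were examined as a list of 31 Hippo kinases, scaffolds and regulators, of which 29 were found by symbol. Their median log2 fold change was -0.029, with 5 higher, 7 lower and 17 overlapping intervals. The core kinase genes Stk3, Stk4, Lats1 and Lats2 and the adaptor genes Sav1 and Mob1a had overlapping intervals. The level of Lats2, itself a reported YAP target, was 14.4 in the control against 12.8 in Klf9-OE PGCs (RPKM). Dchs1, a large cadherin upstream of the Hippo kinases, was the only gene of the list past 2-fold, at an RPKM of 1.47 (1.26 to 1.69) in the control against 0.496 (0.420 to 0.572) in Klf9-OE PGCs. The intervals of Dchs1 implied 189 and 169 reads in control and Klf9-OE PGCs. Its reads per RPKM in Klf9-OE over control PGCs came to 2.66 against the depth ratio of 1.22. The part of this in its difference was not tested. Nf2, the merlin gene that activates the kinases at the membrane, reached an RPKM of 97.6 (94.3 to 101) in the control against 80.7 (77.8 to 83.5) in Klf9-OE PGCs, and was lower with intervals apart. Stk25, a germinal center kinase, was also lower, from 197.6 to 110.3. Amot, another angiomotin gene, was higher, with an RPKM of 6.54 (6.13 to 6.95) and 10.1 (9.53 to 10.7), in contrast to the RPKM of Amotl2. Its intervals implied 1023 and 1154 reads, and its reads per RPKM in Klf9-OE over control PGCs came to 0.729, which was not tested further. Amotl1, also an angiomotin gene, had 2.78 and 2.53 with overlapping intervals. The most abundant gene was Ywhaq, a 14-3-3 protein of the kind that holds phosphorylated YAP in the cytoplasm, with an RPKM of 171.9 and 183.4 and overlapping intervals.

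The Vgll genes encode cofactors that compete with YAP for TEAD proteins. Vgll4, a repressor of TEAD activity, reached an RPKM of 9.06 (8.21 to 9.92) in the control against 6.26 (5.51 to 7.02) in Klf9-OE PGCs and was lower with intervals apart. Vgll3 had an RPKM of 0.827 (0.627 to 1.03) and 1.64 (1.39 to 1.89), and was higher with intervals apart. Vgll1 and Vgll2 had an RPKM below 0.2 in both libraries, with overlapping intervals.

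A wider list of 32 reported YAP and TAZ targets, 4 of which are also in the Hippo list, had a median log2 fold change of 0.30. The intervals were apart and higher for 14 and lower for 3 of these genes, and 15 overlapped. Msln, a surface protein of the mesothelium, was the only gene of the list past 2-fold whose RPKM reached 1 in either library, and its intervals were apart. Its RPKM was 1.05 (0.754 to 1.34) in the control against 3.03 (2.41 to 3.65) in Klf9-OE PGCs. The intervals of Msln implied 51.5 and 96.6 reads. Its reads per RPKM in Klf9-OE over control PGCs came to 0.647 against the depth ratio of 1.22. The part of this in its difference was not tested. Axl, a receptor tyrosine kinase, had an RPKM of 13.0 and 18.1, Thbs1, a matrix protein, had 4.12 and 7.68, and Tagln, an actin-binding protein of smooth muscle, had 36.5 and 57.7, all with intervals apart. Asap1, Crim1 and Rbms3 were lower with intervals apart. The most abundant gene, Birc5, had an RPKM of 68.3 and 66.3 with overlapping intervals. Of the 13 somatic markers given above, 7 were higher in the same library, 1 was lower and 5 overlapped. This stands beside 11.2% higher and 14.4% lower over all genes, and the part of such cells was not tested.

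Immediate early genes, many of which respond to the same stimuli as Ctgf and Cyr61, had a median log2 fold change of 0.39, with 8 of 13 higher, 0 lower and 5 overlapping by their intervals. Egr1 reached an RPKM of 3.76 (3.32 to 4.20) in the control against 8.45 (7.85 to 9.04) in Klf9-OE PGCs, and Atf3 had 1.07 (0.77 to 1.36) and 2.25 (1.76 to 2.74). Both were past 2-fold. Fosl1 was listed at 0 in control PGCs and at 0.956 in Klf9-OE PGCs. Srf, whose protein also acts on Ankrd1 and Ctgf in other cells, had an RPKM of 13.1 and 22.3 with intervals apart. The intervals implied 947 and 987 reads for Srf and 51.9 and 84.0 for Atf3 in control and Klf9-OE PGCs. Reads per RPKM in Klf9-OE over control PGCs came to 0.610 for Srf and 0.766 for Atf3, against 1.22 for Egr1 and the depth ratio of 1.22. The part of this in the differences of Srf and Atf3 was not tested. Ier3, the most abundant gene, had 28.6 and 31.5 with overlapping intervals.

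Genes of the trophectoderm, where Tead4 acts in the early embryo, did not move together, with a median log2 fold change of -0.070. Of 9 genes, 2 were higher, 2 were lower and 5 overlapped. Cdx2, which Tead4 switches on in the trophectoderm, reached an RPKM of 0.112 in the control against 0.0920 in Klf9-OE PGCs, and Gata3 had 1.37 and 1.30, with overlapping intervals for both. Eomes had an RPKM of 0.364 and 0.795 and was higher with intervals apart. Id2 was the most abundant, at 28.5 and 28.0. These lists were written with earlier results of these libraries known, and their counts are to be read beside the shares of genes with intervals apart. These shares were 11.2% higher and 14.4% lower over all genes, and 15.0% higher and 20.8% lower at a mean RPKM of 5 to 40. Most germ cell markers lay above that range, and no share was worked out for genes at their level. Of the 29 Hippo genes, 12 had intervals apart in either direction, against 25.6% and 35.8% of genes in these backgrounds.

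**Figure D4:**
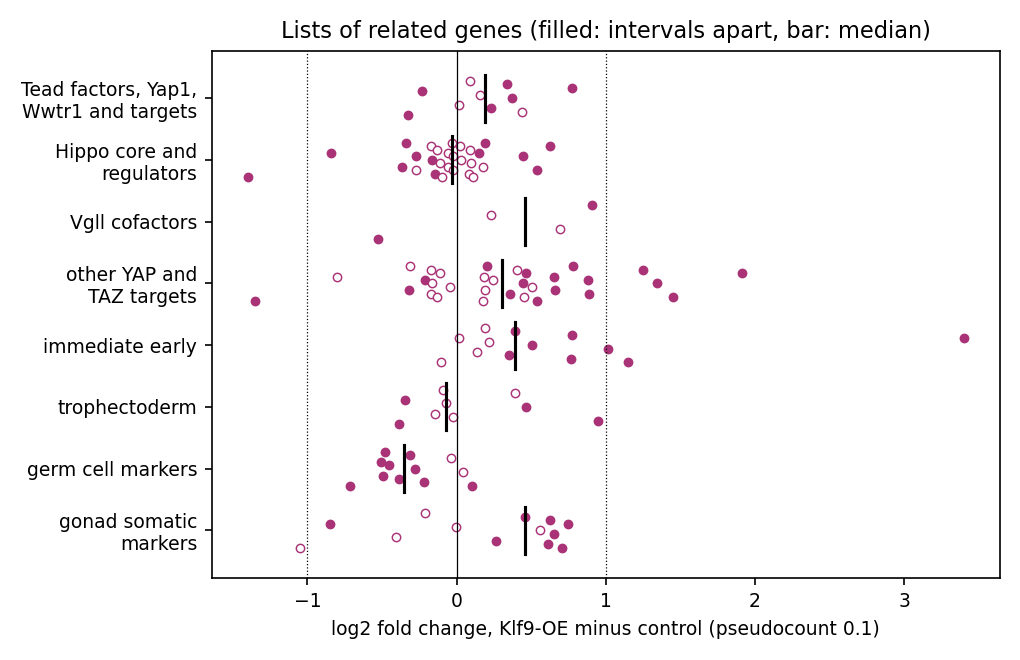
Log2 fold change (Klf9-OE minus control, x axis) of each gene in the 10-gene group and in 7 lists, with 1 circle per gene, filled where the intervals were apart, and a bar at the median. The median is 0.19 for the 10 genes, -0.029 for the Hippo core and 0.30 for other YAP and TAZ targets, against 0.46 for gonad somatic markers and -0.35 for germ cell markers.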

How the data were processed

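RNA-seq libraries (TruSeq RNA v2, which does not mark the strand, 51-mer single-end) of 1 control and 1 Klf9-OE culture were analysed. The authors mapped reads to mm10 and RefSeq with TopHat2 and Bowtie and deposited FPKM from Cufflinks, with 95% intervals (called RPKM here, since each read is single-end). Cuffdiff results were not used here, and versions are not given in the sources used here. The files hold no read totals.

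RPKM was summed over loci of the same symbol. Ratios used no pseudocount, and log2 fold changes used log2(RPKM + 0.1), which understates the change of low genes. Intervals were compared for genes with 1 locus in each file. Their upper half-widths were combined as a root of summed squares for the range of a log2 fold change. Reads were implied as the square of 2 times the RPKM over the upper half-width. Their ratio per RPKM between the libraries was compared within 10% with its median over the 2851 genes described above. Starts are 1-based. No test of the conditions was possible. Steps were tested on simulated data. Alternatives were other pseudocounts, a minimum RPKM, both rescalings, the highest locus, a lower fold threshold, wider intervals and the subsets of genes. Leaving out Ankrd1, the background of 5 to 40 RPKM and the 10 kb distance were chosen after the data were seen.

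The 10 genes and the lists were chosen with earlier results of these data known. Named genes are the 10, Klf9, genes of a list past 2-fold with intervals apart and an RPKM of at least 1, and the most abundant of each list. Other Hippo and Vgll genes are named for their role. Among the Hippo genes below 2-fold, Stk25 had the largest fall and Amot the largest rise, and several others with intervals apart are not named. Axl, Thbs1, Tagln, Asap1, Crim1, Rbms3, Sox9, Srf, Fosl1, Cdx2, Gata3, Eomes, Tcf21, Tek, Kdr, Ptprc and Adgre1 were named after their values were seen. Motifs were sought on both strands as CATTCC (Tead), GGGCGG (GC box) and CACCC (Klf C-rich core). Sequences are from RefSeq (GRCm38.p6), and overlaps and 51-base words from GENCODE. Calculations used Python 3.11.15, numpy 2.4.6, pandas 2.3.3 and matplotlib 3.10.9.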

Additional observations from a re-analysis of the deposited data

Results flagged for a closer look

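Cufflinks also assembled loci without a gene name, which no comparison above used. Within 10 kb of the 10 genes there were 4 of them in the control file, all at Yap1, and 11 in the Klf9-OE file, which is the higher number that drew attention to them. The ratio of 2.75 is to be read beside a ratio of 2.33 over the whole files, with 15127 such loci in Klf9-OE and 6482 in control PGCs. In the Klf9-OE file, 6 lay at Yap1, 2 at Tead2, 2 at Tead4 and 1 at Cyr61. The loci at Tead4 spanned 128225457 to 128225870 and 128226081 to 128226182 of chromosome 6, downstream of the Tead4 locus of the files but inside the longer Tead4 gene of GENCODE, where no exon is annotated. They had an RPKM of 3.12 (1.79 to 4.45) and 152.8 (54.2 to 251.5), the latter over 102 bases. Their intervals implied only 22.0 and 9.59 reads, so the high RPKM rests on few reads over a very short length. The loci at Tead2 (45216110 to 45216274 and 45216460 to 45216586 of chromosome 7) overlapped untranslated exons of Tead2 in GENCODE. In the control file, the locus at 7938934 to 7939609 of chromosome 9 overlapped a coding exon of Yap1, with an RPKM of 1.46 and 18.9 implied reads. The RPKM of Tead2, Tead4 and Yap1 does not include these loci, and whether their reads belong to these genes was not tested.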

How the results depend on the processing

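The number of genes changed 2-fold stayed at 0 of 10 with a pseudocount of 0.01 on the log scale and 0.1 in the ratio, with a pseudocount of 1, and with both rescalings, and was 1 with a threshold of 1.5-fold (Ankrd1). The number with intervals apart was 3 among the 4 targets, 3 among the 6 factors and coactivators, and 4 when the Klf9-OE intervals were widened by the square root of 2 (Tead1, Cyr61, Amotl2 and Ankrd1), where the share among genes with a mean RPKM of 5 to 40 was 29.5%. Without Ankrd1 and Amotl2, an alternative added after the data were seen, it was 4. The median log2 fold change lay between 0.15 and 0.25. Of 40 values of single genes under the pseudocounts and rescalings, 40 kept within the range of their intervals. The rescalings moved a log2 fold change by at most 0.029 or 0.062, below the smallest combined error (0.104 for Tead1). Values under the rescalings could therefore not leave the range. A pseudocount acts mainly on low genes, and with a pseudocount of 1 the log2 fold change of Tead4 went from 0.44 to 0.20. Taking the highest locus or a minimum RPKM could not move the value of a gene, since each had 1 locus per file and a minimum only removes genes, and shows nothing on stability. No leaving out of replicates was possible with 1 library per condition. No paired analysis was possible because each condition had 1 library. Depth limits Tead4 most.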

Other observations

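The same promoter windows were searched for sequences bound by Sp and Klf factors. A GC box (GGGCGG, or CCGCCC on the other strand) was present for 6 of the 7 genes with a window, with Ankrd1 as the exception, against 38.2% of 27025 genes. The Klf C-rich core (CACCC or GGGTG) was present for 4 of the 7 genes, namely Tead3, Yap1, Wwtr1 and Ankrd1, against 59.8% of all genes. Cyr61, Amotl2 and Tead2 had a GC box but no such core.

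The remaining marker lists described cells other than germ cells. Of 4 endothelial markers, 2 were higher, 1 was lower and 1 overlapped by their intervals, beside 11.2% higher and 14.4% lower over all genes. Tek was lower, with an RPKM of 0.735 (0.574 to 0.896) in the control against 0.439 (0.327 to 0.550) in Klf9-OE PGCs. Kdr had 0.367 and 0.465 with overlapping intervals. Cdh5, the cadherin of endothelium, reached an RPKM of 1.995 (1.66 to 2.33) in the control against 5.09 (4.57 to 5.60) in Klf9-OE PGCs, and Pecam1, which PGCs also express, had 16.8 and 24.2. The intervals of Pecam1 implied 1048 reads in control PGCs and 220 in the deeper Klf9-OE library. Reads per RPKM in Klf9-OE over control PGCs came to 0.146 for Pecam1 and 1.06 for Cdh5, against the depth ratio of 1.22. The part of this in the difference of Pecam1 was not tested. Of 4 measured markers of blood and macrophages, 1 was higher and 3 overlapped. Ptprc (0.0584 and 0.0239) and Adgre1 (0.0836 and 0.0196) were past 2-fold lower by RPKM, with overlapping intervals. Csf1r had an RPKM of 0.307 and 1.18 with intervals apart, and Cd68 had 3.69 and 4.11 with overlapping intervals. Their reads per RPKM in Klf9-OE over control PGCs came to 0.391 for Csf1r and 0.346 for Cd68. The part of this in their values was not tested.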
